A study of Homo sapiens with 4 samples.

Results

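The genes described here read lower than Ctrl on both GALNT3 KO arrays and higher than Ctrl on both arrays of the GALNT3/T6 KO label, so that they changed side between the 2 kinds of KO. They were chosen on these measured ratios themselves. For each array the background-subtracted log2 ratio of KO over Ctrl was averaged over the spots of a probe and centred on the array median. A gene became a member when a probe was at least 1.5-fold below the array median on both GALNT3 KO arrays and at least 1.5-fold above it on both others, with Ctrl well above background on all 4 arrays. By this rule 234 genes were members, through 274 probes, of 25323 genes with Ctrl well above background on all 4 arrays and 29123 gene names on the array, which is 0.924% of the 25323. Because the ratios of all 4 arrays chose the members, their direction and size are a description and carry no test, and fall and rise are used here only for the 2 sides of these ratios.

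The cells were A2780s, an established human line of epithelial ovarian cancer. GALNT3 and GALNT6 encode N-acetylgalactosaminyltransferases, enzymes that place the first sugar of mucin-type O-glycans on serine and threonine. RNA of 2 GALNT3 KO clones, made with CRISPR/Cas9, and of 2 clones labelled GALNT3/T6 KO, made by lentiviral shRNA against GALNT6 in GALNT3 KO cells, was labelled with Cy5. Each was hybridized with Cy3-labelled RNA of mock-transfected Ctrl cells on an array of its own, with no dye swap. Each array is 1 clone, the clones of both groups carry the GALNT3 deletion by their labels, and transduction and selection cannot be told apart from the GALNT6 knockdown. No Ctrl RNA was hybridized against Ctrl RNA, so the own spread of Ctrl is left out, and in RNA from a whole culture fewer cells of a kind and less RNA per cell cannot be told apart.

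The targeted genes were read first. On the GALNT3 KO arrays neither channel of the only GALNT3 probe was well above background, so that it checks nothing there. On the arrays of the GALNT3/T6 KO label its centred log2 ratio was 5.13 and 5.43, with KO above Ctrl, against the label, and directions from these 2 arrays are therefore given for the arrays as labelled. GALNT6 measured -0.71 and -0.42 on the GALNT3 KO arrays and -1.05 and -0.91 on the others, lower than Ctrl on all 4. In each channel between 86.9% and 93.8% of spots were well above background, and none was saturated. Of the epithelial ovarian markers KRT8, KRT18, KRT19, EPCAM, PAX8, WT1 and MUC16 were well above background in Ctrl on all 4 arrays, and CDH1 on 3. Under the GALNT3/T6 KO label limma called 6 of 8 epithelial, 3 of 4 mesothelial, 2 of 4 endothelial, 1 of 5 leukocyte and 2 of 6 fibroblast markers higher, beside 14.2% of all genes, and 3 of 6 fibroblast markers and none of the others lower, beside 16.8%. The fibroblast markers had a median log2 ratio of -0.90 in GALNT3 KO and of -0.67 under the GALNT3/T6 KO label. In GALNT3 KO 1 of 6 was called lower, beside 4.46% of all genes. Their part in the results below was not tested.

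The members come from many processes rather than from 1 pathway, and several of their families have well known roles. Metallothioneins are small cysteine-rich proteins that bind zinc and copper, and their genes are switched on by metals through short metal response elements in their promoters. HSPB1, also called HSP27, is a small heat shock protein that holds unfolded proteins and actin filaments. Interferon-stimulated genes make the antiviral proteins of a cell, while tropomyosins, calponins and ezrin organise its actin filaments and the membrane above them. Imprinted genes such as MEST are read from the copy of only one parent.

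The upstream sequences of 3 metallothionein members and of HSPB1 are shown because the largest cluster of neighbouring members was made of metallothionein genes and HSPB1 was the strongest member of the stress proteins. Each is the stretch of 250 bases before the transcription start in RefSeq on GRCh38.p14, on the plus strand, written 5′ to 3′. Capitals mark the core of the metal response element, TGCGCNC or TGCACNC on either strand, in the metallothionein genes, and the heat shock element GAANNTTC in HSPB1. The stretches lie at chr16:56608334-56608583 for MT2A, chr16:56682220-56682469 for MT1X, chr16:56669564-56669813 for MT1H and chr7:76302423-76302672 for HSPB1.
MT2A: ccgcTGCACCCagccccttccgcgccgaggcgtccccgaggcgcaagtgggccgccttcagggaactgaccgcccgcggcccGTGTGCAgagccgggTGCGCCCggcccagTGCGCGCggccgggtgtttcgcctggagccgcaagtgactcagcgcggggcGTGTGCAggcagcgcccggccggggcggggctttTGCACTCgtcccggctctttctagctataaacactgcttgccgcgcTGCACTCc
MT1X: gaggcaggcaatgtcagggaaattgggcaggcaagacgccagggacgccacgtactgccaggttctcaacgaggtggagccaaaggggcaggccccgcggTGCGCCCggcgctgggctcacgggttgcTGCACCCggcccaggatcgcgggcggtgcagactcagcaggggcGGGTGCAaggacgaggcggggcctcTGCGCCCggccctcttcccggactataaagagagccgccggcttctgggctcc
MT1H: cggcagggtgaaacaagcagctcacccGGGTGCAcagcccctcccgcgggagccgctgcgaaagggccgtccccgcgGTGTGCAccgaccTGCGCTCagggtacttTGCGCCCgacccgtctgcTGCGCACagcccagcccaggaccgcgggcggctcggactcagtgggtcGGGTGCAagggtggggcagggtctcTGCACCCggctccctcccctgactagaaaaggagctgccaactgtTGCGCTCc
HSPB1: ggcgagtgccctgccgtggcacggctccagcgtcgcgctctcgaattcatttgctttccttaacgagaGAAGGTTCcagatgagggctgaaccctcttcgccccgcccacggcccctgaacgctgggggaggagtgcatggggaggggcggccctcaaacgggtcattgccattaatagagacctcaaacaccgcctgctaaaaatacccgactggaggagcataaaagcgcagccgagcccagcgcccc

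The core occurred 7 times upstream of MT2A, 4 times upstream of MT1X and 8 times upstream of MT1H, and the heat shock element once upstream of HSPB1. Over windows of 300 bases, from 250 before to 50 after the start, 34.8% of 19744 promoters held the metal response core and 40.4% of the 302 promoters of members did. The heat shock element was in 5.37% and 5.96%. Both elements were chosen after the values of the members were seen. A match in these letters is a description of the sequence and no binding site.

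Over the 234 genes, each by its brightest member probe, the mean centred log2 ratio in GALNT3 KO ran from -5.40 to -0.62, with a median of -1.02, and on the arrays of the GALNT3/T6 KO label from 0.66 to 5.37, with a median of 1.68. All 35231 probes with Ctrl well above background had medians of 0.04 and 0.04. The fall was the smaller side for most members: in 46 of the 234 the mean fall exceeded the mean rise. By these ratios the mean change was at least 2-fold each way in 103 members and at least 4-fold each way in 8. The 8 were MEST, SLC16A3, RBMS1, MAP3K13, PLOD2, HSPB1, GRB10 and LGALS8. Some of the 103 had too faint a KO signal in both GALNT3 KO clones, so that their fall has only a lower bound. This bound is 1.48-fold for JAG1 and 1.24-fold for MAGI2-AS3, and among these faint members only that of MYO5C, 2.15-fold, exceeds 2-fold. The SD of the 2 arrays had a median of 0.13 in GALNT3 KO and 0.24 on the others, compared with 0.12 and 0.16 over all probes.

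**Figure D1:**
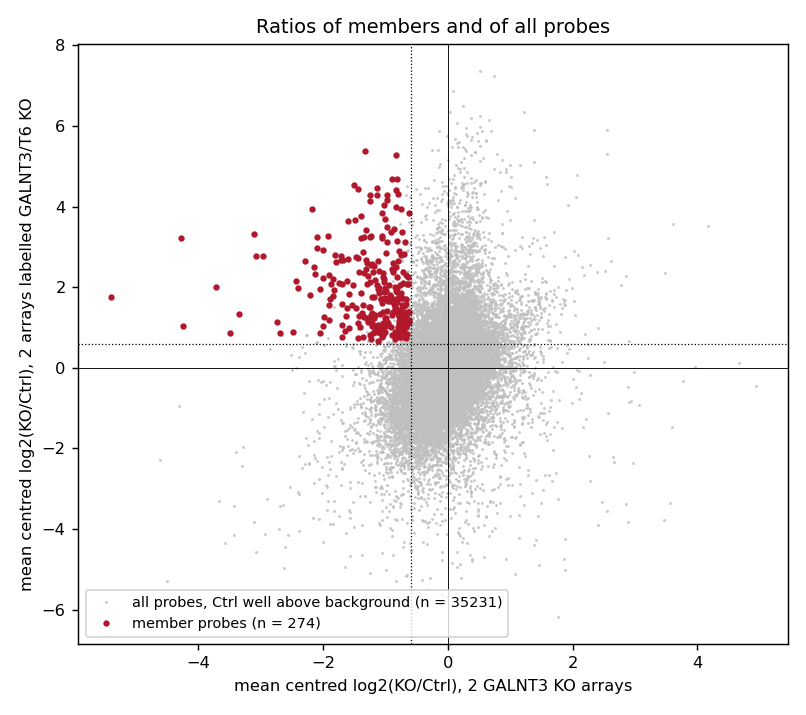
Mean centred log2 ratio of KO over Ctrl on the 2 GALNT3 KO arrays (x axis) against the 2 arrays of the GALNT3/T6 KO label (y axis), 1 point a probe, with dotted lines at a change of 1.5-fold. The 274 member probes (red) fill the upper left corner by the rule that chose them, and reach -5.40 on the x axis and 5.37 on the y axis, among 35231 probes with Ctrl well above background (grey).

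The rule alone held for 6.18% of the 25323 genes on the side lower in GALNT3 KO and for 15.8% on the side higher under the GALNT3/T6 KO label. In a separate fit, limma tested each group against Ctrl on loess-normalized ratios of 27181 genes, and calls needed 1.5-fold or more together with an adjusted p (Benjamini-Hochberg) no higher than 0.05. It called 4.46% of genes lower and 2.34% higher in GALNT3 KO, 14.2% higher and 16.8% lower under the GALNT3/T6 KO label, and 0.633% lower in the first and higher in the second. Of the 234 members 146 were called lower, 217 higher, 140 both and 11 neither. These calls come from the same arrays as the rule, so nothing is read from them. Without GALNT3 KO replicate 1 or without GALNT3 KO replicate 2 limma called 0 genes lower, and so 0 in both directions, where 1737 and 234 had an unadjusted p of at most 0.05 on all 4 arrays. Without GALNT3/T6 KO replicate 1 the count in both directions was 277 in place of 172.

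Not every member was measured equally well. Of the 234, 118 had a single probe on the array, and 111 had several probes with Ctrl well above background. In 64 of these 111 every such probe had a mean below 0 in GALNT3 KO and above 0 on the other arrays. Within the 64 are 25 genes in which every such probe met the rule. In the genes of the 111 outside the 64 a further probe did not have these signs. Among the genes described below these were MAP3K13, PVRL3, DKK3, SECTM1, PARP14, TRIM7, DST, TUBA4A, KLF2, LAMA1, TPM1, DDR1, TAGLN2, NEDD4L, RIPK4, INSIG2, MT1X, MICB, MITF, MVK, ROBO3, ATP2B4, MT1G, OXTR, GPSM2, CFLAR, BCL2L11, POT1, ARID5B, SLC16A12 and SYNE1. The brightest probe of a gene, which limma tested, changed by less than 1.5-fold on at least 1 side, or the other way, in GRB10, MAGI2-AS3, CYR61, SECTM1, CAV1, CAST, DST, TUBA4A, TAGLN2, NEDD4L, RIPK4, MICB, MITF, ADAM9, PDE4DIP, ZNF702P, OXTR, SLC4A4, BCAT1, GPSM2, POT1, ARID5B, IFI27, SLC16A12, ZAK, SKA1, SYNE1, IFIT2 and MYLK, each of which has several probes. The KO channel was well above background on all arrays of the GALNT3/T6 KO label for every member. In GALNT3 KO it was dim, that is not well above background, on both arrays for 18 members and on 1 array for 26. The ratio of the 26, among them SYCP2, CBR1, PVRL3, GATM, PDGFRB, MAP3K8, SECTM1, CXADRP2, PARP14, DST, PLCE1, MITF, EDIL3, PDE4DIP, ZNF702P, OXTR, MFAP4, SLC4A4, IFI27, SLC16A12 and SKA1, is not exact. For the 18 the fall is a bound, the mean of Ctrl over the higher of the dimmest probe well above background and the probe itself, per channel after loess and Aquantile normalization. These bounds ran from at least 1.16-fold to at least 2.15-fold lower and are open to dye bias.

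The Ctrl channel moved as well. The same Ctrl RNA should read alike on all arrays, but the paper sets KO clones against corresponding Ctrl clones, which need not be the same. The Ctrl level (log2, after loess and Aquantile) was higher on the arrays of the GALNT3/T6 KO label for many members. The cause was not tested. For the brightest member probe of each gene the Ctrl difference between the 2 pairs of arrays had a median of 0.18, compared with -0.08 over all probes, and 40 of the 234 members were at least 1.5-fold brighter in Ctrl there, 17.1%, against 2.00% of all probes. The KO level differed by a median of 2.75 in the members. IFI27 showed the most of this, with Ctrl levels of 7.60 and 7.88 on the GALNT3 KO arrays and 12.39 and 12.23 on the arrays of the GALNT3/T6 KO label, and KO levels of 7.17 and 7.36 on the GALNT3 KO arrays and 15.47 and 15.68 on the arrays of the GALNT3/T6 KO label. PDE4DIP followed with Ctrl levels of 7.94 and 7.33 on the GALNT3 KO arrays and 10.77 and 10.47 on the arrays of the GALNT3/T6 KO label.

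The median Ctrl level was higher in the groups of probes that brightened more in the KO channel, in members and in all probes. The 19 member probes whose KO level rose by 6 or more on the log2 scale had a median Ctrl rise of 1.49, while 105 probes of the whole array in this range had 2.92. Below a KO rise of 2 the medians were 0.03 for 53 member probes and -0.09 for 34038 probes. With the KO channel of each array set against the mean Ctrl level of all 4, 196 of the 234 genes still had a member probe past 1.5-fold lower on both GALNT3 KO arrays, 218 past 1.5-fold higher on both others, and 187 both. This mean takes Ctrl as the same RNA on all 4. MEST ran the other way in Ctrl, with levels of 15.23 and 15.09 on the GALNT3 KO arrays and 15.16 and 14.16 on the arrays of the GALNT3/T6 KO label.

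**Figure D2:**
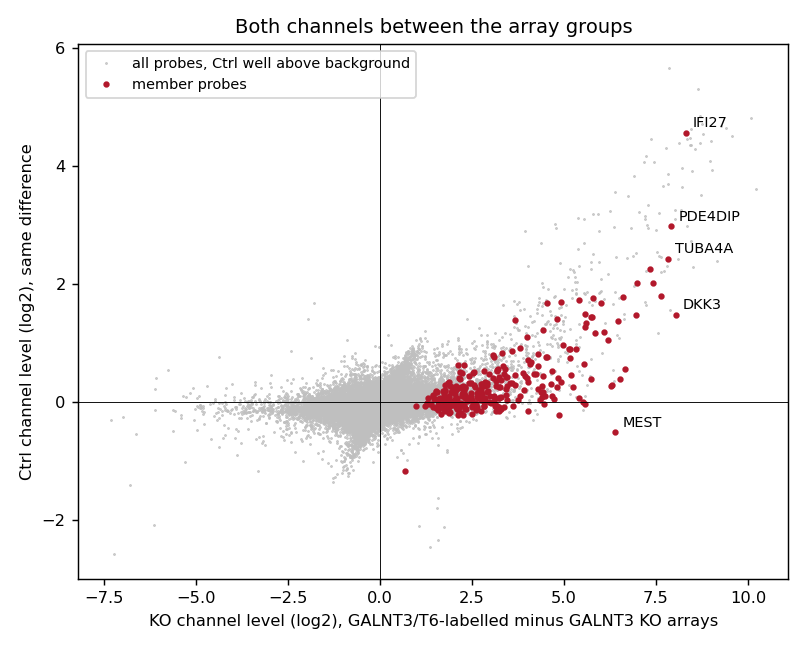
Difference of the KO channel level (x axis) and of the Ctrl channel level (y axis), both log2, between the mean of the 2 arrays of the GALNT3/T6 KO label and the mean of the 2 GALNT3 KO arrays, 1 point a probe. Member probes (red) all lie right of 0, and those furthest right, such as IFI27 at 8.31, mostly lie above 0 in Ctrl, where IFI27 reached 4.57 and MEST, the exception, -0.50.

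Near the threshold, the members just inside were IFITM2 (-0.74 and -0.59, then 0.96 and 1.08), LAMA1 (-0.78 and -1.65, then 0.59 and 1.64) and GSTM1 (-0.83 and -0.59, then 2.12 and 2.08), in the order GALNT3 KO replicate 1 and 2, then GALNT3/T6 KO replicate 1 and 2. Just outside were INSIG1 (-0.58 and -0.74, then 1.84 and 1.42), PSMB9 (-0.58 and -0.58, then 2.79 and 2.51) and FAM20C (-0.61 and -0.58, then 1.38 and 1.70), each short of 1.5-fold on a GALNT3 KO array before rounding. The order of the 4 values is the same wherever ratios of a member are written.

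Ranked by the smaller of its 2 absolute group means, MEST, an imprinted gene of the alpha/beta hydrolase family, stood first. Its centred log2 ratios were -4.13 and -4.40, then 1.95 and 4.48, a mean of -4.27 ± 0.20 and 3.21 ± 1.79 (SD, n = 2 and n = 2). The 2 arrays of the GALNT3/T6 KO label lay far apart for it. SLC16A3, the lactate exporter also known as MCT4, measured -3.09 and -3.11, then 2.98 and 3.68. The arrays of each group lay within a log2 unit of each other. RBMS1, a protein that binds single-stranded DNA and RNA, measured -4.13 and -2.004, then 2.62 and 2.93, with its 2 GALNT3 KO arrays far apart.

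Signalling genes followed. MAP3K13, a kinase at the head of a stress kinase cascade, measured -2.31 and -2.26, then 2.72 and 2.59, though only 1 of its 3 probes with Ctrl above background met the rule. GRB10, an adaptor that binds the insulin receptor, measured -3.98 and -3.45, then 1.57 and 2.45 by 1 of 2 probes, while the brighter probe had limma means of -2.77 and 0.46, a rise below 1.5-fold. The serine/threonine kinase PIM1 measured -1.84 and -1.96, then 1.76 and 2.85. In all 3 the groups were separated by more than 3 log2 units, while PIM1 differed between the 2 arrays of the second group by over a log2 unit. JAG1, a ligand of the Notch receptors, measured -1.73 and -1.77, then 2.17 and 2.04, but it was dim in KO on both GALNT3 KO arrays, and the fall is at least 1.48-fold. JAG1 was the only member among 24 Notch signalling genes with Ctrl above background, 4.17%, beside 0.924% of all genes.

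Matrix and adhesion genes were also high in the ranking. PLOD2, a lysyl hydroxylase that prepares collagen for crosslinking, measured -2.28 and -2.06, then 3.58 and 4.29. LGALS8, the secreted lectin galectin-8, measured -2.18 and -1.83, then 2.30 and 2.18, with both probes in the rule, and EMILIN2, a glycoprotein of elastic fibres, measured -1.75 and -1.68, then 2.69 and 2.66. EMILIN2 had the smallest SD of these 3 genes in both groups. OCLN, the tight junction protein occludin, measured -2.22 and -1.53, then 1.997 and 2.17 by its brightest probe, and all 3 of its probes were members. PVRL3 (now NECTIN3), a nectin of adherens junctions, measured -2.25 and -1.18, then 2.78 and 2.75, with KO dim on 1 GALNT3 KO array.

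Among the genes of the cell interior, MYO5C, an unconventional myosin, measured -1.80 and -1.88, then 2.06 and 2.37 and MAP1B, which binds microtubules, -1.80 and -1.88, then 1.02 and 2.54. MYO5C was dim in KO on both GALNT3 KO arrays, so its fall is at least 2.15-fold. SYCP2, a protein of the meiotic synaptonemal complex, measured -1.94 and -1.70, then 1.85 and 2.03, and FAM111A, a protease active at DNA replication, -2.41 and -2.39, then 1.75 and 2.22. ATP1B1, the beta subunit of the sodium pump, measured -1.79 and -1.57, then 2.80 and 2.55, both probes in the rule. SYCP2 was dim in KO on 1 GALNT3 KO array.

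Of the enzymes, CBR1, a carbonyl reductase, had the deepest fall of all members at -6.00 and -4.80, then 1.24 and 2.25, with KO at background on 1 GALNT3 KO array. GATM, which makes the precursor of creatine, measured -2.16 and -1.03, then 2.29 and 3.12. DDX58 (now RIGI), the cytosolic sensor of viral RNA, measured -1.82 and -1.41, then 1.77 and 2.54. CBR1 was one of the members whose rise was the smaller side, as it also was for MEST, RBMS1, GRB10, FAM111A and MAP1B among these 25. The genes less well known by function were C1orf21 (-1.91 and -1.93, then 3.18 and 3.37), KIAA1522 (now NHSL3; -1.90 and -1.49, then 1.83 and 2.35), PLAC8 (-1.45 and -1.76, then 3.70 and 3.59) and the antisense RNA MAGI2-AS3 (-1.85 and -1.72, then 2.34 and 2.92), whose fall is at least 1.24-fold because KO was dim there. The brighter MAGI2-AS3 probe had a limma mean of -0.21 in GALNT3 KO (limma, adjusted p = 0.22), with no call there. MAGI2-AS3 was the 1 member among 651 names of the noncoding and antisense RNA family, 0.154%, beside 0.924% of all genes. The family was matched by name and leaves out members such as CNN3-DT and SOCS3-DT.

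**Figure D3:**
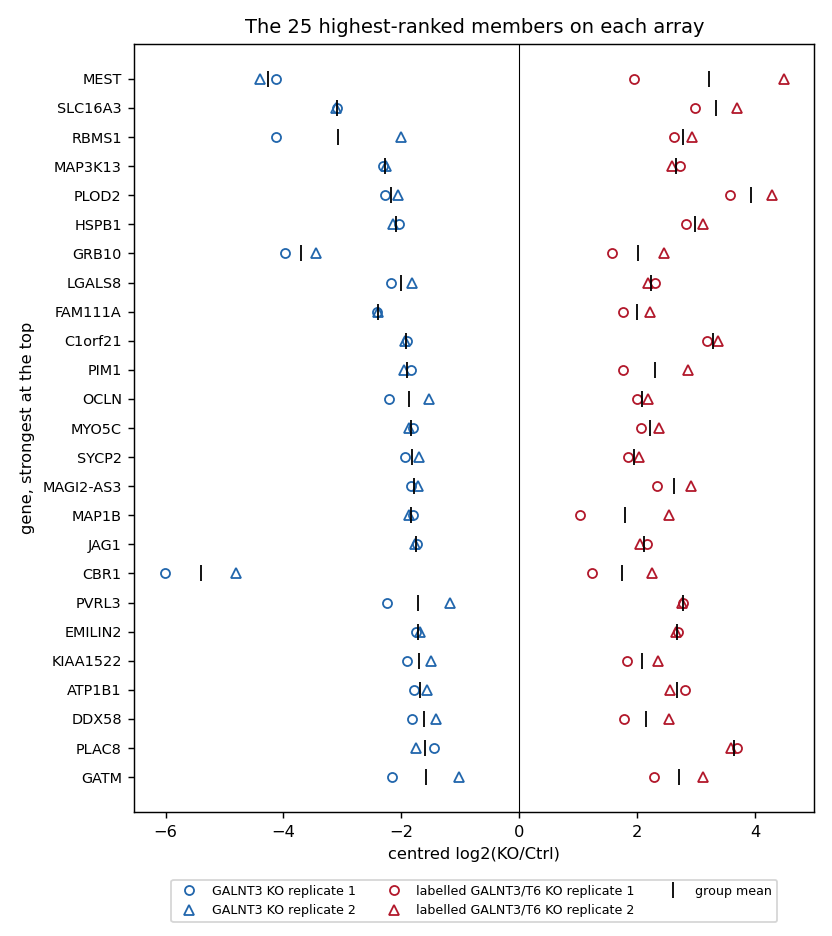
Centred log2 ratio of KO over Ctrl (x axis) of the 25 highest-ranked members (y axis) on each of the 4 arrays, with circles for replicate 1, triangles for replicate 2 and a bar for each group mean. Blue GALNT3 KO values lie between -6.00 and -1.03 and red values of the arrays of the GALNT3/T6 KO label between 1.02 and 4.48, with MEST, MAP1B and PIM1 having the red values that lie widest apart.

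Members outside these 25 are grouped by role, and a group that is not called a list was put together after the values were seen. The metallothioneins were the densest group, with 5 members inside 74625 bases of chromosome 16 (hg19). MT2A (probe at 56643332 to 56643391) measured -1.25 and -1.44, then 2.69 and 3.80, and all 3 of its probes were members. MT1X (probe at 56717898 to 56717957) measured -0.61 and -1.19, then 2.97 and 3.76 and MT1G (probe at 56700746 to 56700805) -0.87 and -0.76, then 2.88 and 3.42. The falls were between 0.61 and 1.44 in size and the rises between 2.69 and 3.80. One further MT1X probe and one further MT1G probe did not have these signs. MT1H measured -0.86 and -1.08, then 2.74 and 3.50 and the pseudogene MT1L -1.01 and -1.09, then 3.05 and 3.41. Metallothionein genes are near copies of one another, and a probe may have bound RNA of its neighbours, so the 5 are not 5 separate measurements.

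The other metallothionein genes were not alike. MT1E measured -0.73 ± 0.16 (SE) in GALNT3 KO (limma, adjusted p = 0.055) and 3.52 ± 0.16 under the GALNT3/T6 KO label (limma, adjusted p = 0.00025). MT1A measured 0.78 ± 0.14 (SE) in GALNT3 KO (limma, adjusted p = 0.044) and 1.97 ± 0.14 under the GALNT3/T6 KO label (limma, adjusted p = 0.00082), higher than Ctrl in both groups. MT1F measured -0.52 ± 0.08 (SE) in GALNT3 KO (limma, adjusted p = 0.035) and 0.42 ± 0.08 under the GALNT3/T6 KO label (limma, adjusted p = 0.014), both below 1.5-fold. MT1B measured -0.17 ± 0.14 (SE) in GALNT3 KO (limma, adjusted p = 0.42) and 3.35 ± 0.14 under the GALNT3/T6 KO label (limma, adjusted p = 0.00019). MT1M measured -0.22 ± 0.08 (SE) in GALNT3 KO (limma, adjusted p = 0.13) and 1.49 ± 0.08 under the GALNT3/T6 KO label (limma, adjusted p = 0.00037), and MT3 0.41 ± 0.10 (SE) in GALNT3 KO (limma, adjusted p = 0.061) and 0.62 ± 0.10 under the GALNT3/T6 KO label (limma, adjusted p = 0.0074). Of these genes MT1E, MT1A, MT1B, MT1M and MT3 were called higher under the GALNT3/T6 KO label, and MT1A also in GALNT3 KO. Ctrl levels moved with this group too: MT1X read 11.09 and 10.88 on the GALNT3 KO arrays and 11.72 and 12.06 on the arrays of the GALNT3/T6 KO label in Ctrl, and MT2A 12.20 and 12.13 on the GALNT3 KO arrays and 12.85 and 13.01 on the arrays of the GALNT3/T6 KO label. The part of the Ctrl channel in the rise was not tested. SLC39A8, an importer of zinc, was a member as well, at -0.60 and -0.82, then 0.62 and 2.15.

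**Figure D4:**
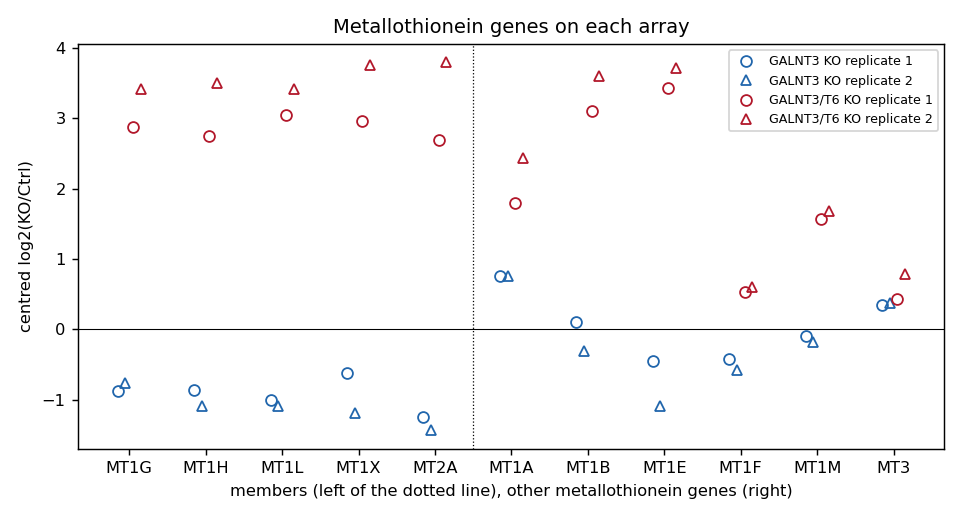
Centred log2 ratio of KO over Ctrl (y axis) of the metallothionein genes on each array, members left of the dotted line, circles and triangles for replicates 1 and 2. All 5 members lie below 0 on both GALNT3 KO arrays (blue) and at 2.69 or more on both arrays of the GALNT3/T6 KO label (red), while MT1A and MT3 lie above 0 on all 4.

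HSPB1, the small heat shock protein, measured -2.05 and -2.13, then 2.83 and 3.12 by its brightest probe, with a mean of -2.09 ± 0.06 and 2.97 ± 0.21 (SD, n = 2 and n = 2). All 3 HSPB1 probes met the rule. A separate probe, named after the HSPB1 pseudogene on the X chromosome, measured -1.12 and -1.45, then 2.19 and 2.38 and may read the same RNA. Of 25 heat shock genes, a set chosen after the values were seen, HSPB1 was the only member, 4%, beside 0.924% of all genes. Its Ctrl level also rose, from 12.84 and 12.70 to 14.03 and 13.86, beside KO levels of 10.80 and 10.68 and then 16.54 and 16.63.

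Of the fixed list of interferon-stimulated genes 8 of 42 with Ctrl above background were members, beside 0.924% of all genes. Besides DDX58 they were BST2, IFI27, ISG15, IFIT2, IFITM2, HERC5 and PARP14. BST2, or tetherin, which holds budding virus at the membrane, measured -2.23 and -0.73, then 3.48 and 3.84, and its 2 GALNT3 KO values lay far apart. PARP14, an ADP-ribosyltransferase, measured -1.66 and -1.17, then 0.87 and 1.68, and HERC5, the ligase that attaches ISG15, -1.12 and -1.33, then 2.21 and 2.92. ISG15 itself, a ubiquitin-like modifier, measured -1.34 and -1.13, then 0.79 and 0.64. ISG15 and PARP14 had the larger mean on the side of the fall, and PARP14 did so by 1 of its 3 probes with Ctrl above background. IFI27 measured -0.79 and -0.66, then 3.12 and 3.60, IFIT2 -0.61 and -0.67, then 1.02 and 1.76 by 1 of 2 probes and IFITM2 -0.74 and -0.59, then 0.96 and 1.08, with falls close to the threshold.

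The list as a whole behaved differently from these 8. By limma 34 of its 42 genes were called higher and 2 lower under the GALNT3/T6 KO label, beside 14.2% and 16.8% of all genes, with a median log2 ratio of 1.15. In GALNT3 KO 7 were called lower and 2 higher, beside 4.46% and 2.34% of all genes, with a median of 0.01. Of the 42, 6 were called lower first and higher second, beside 0.633% of all genes. IFI16, a DNA sensor, measured 0.25 ± 0.08 (SE) in GALNT3 KO (limma, adjusted p = 0.11) and 5.24 ± 0.08 under the GALNT3/T6 KO label (limma, adjusted p = 9.2e-05). IRF7, a transcription factor of the interferon response, measured 0.03 ± 0.08 (SE) in GALNT3 KO (limma, adjusted p = 0.78) and 3.29 ± 0.08 under the GALNT3/T6 KO label (limma, adjusted p = 9.2e-05). Neither was called lower in GALNT3 KO. SECTM1, MICB, PLSCR1 and SAMHD1, which have antiviral or immune roles and are not in the list, were members too, with group means of -1.31 and 3.43, -1.19 and 0.87, -0.91 and 1.68 and -0.98 and 1.14. The brightest MICB probe had a limma mean of -1.22 under the GALNT3/T6 KO label, the opposite side. SAMHD1 was dim in KO on both GALNT3 KO arrays, and its fall is at least 1.29-fold.

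Of 37 actin cytoskeleton and contractile genes 5 were members, 13.5%, beside 0.924% of all genes. CNN3, a calponin that binds actin, measured -1.31 and -1.11, then 1.36 and 1.36. TPM1, the alpha tropomyosin that lies along actin filaments, measured -1.40 and -1.99, then 0.61 and 1.53, and 4 of its 6 probes were members. EZR, ezrin, which ties actin to the membrane, measured -0.86 and -1.18, then 1.25 and 2.18. MYLK, the kinase that starts contraction by phosphorylating myosin light chain, measured -0.62 and -0.62, then 3.53 and 4.15, a fall near the threshold and a large rise. TAGLN2, transgelin 2, was a member by its dimmer probe (-1.13 and -0.92, then 2.33 and 1.93), with a fall of at least 1.31-fold, but its brighter probe had a limma mean of 0.12 in GALNT3 KO, so its probes disagreed.

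In this list limma called 6 genes lower and none higher in GALNT3 KO, beside 4.46% and 2.34% of all genes. Under the GALNT3/T6 KO label it called 9 higher and 7 lower, beside 14.2% and 16.8%. The median log2 ratios of the list were -0.09 and 0.01. Some genes of the list were lower than Ctrl in both groups. CNN1, the smooth muscle calponin, measured -1.80 ± 0.09 (SE) in GALNT3 KO (limma, adjusted p = 0.0059) and -3.81 ± 0.09 under the GALNT3/T6 KO label (limma, adjusted p = 9.2e-05), and ACTG2, the enteric smooth muscle actin, -1.40 ± 0.13 (SE) in GALNT3 KO (limma, adjusted p = 0.017) and -2.04 ± 0.13 under the GALNT3/T6 KO label (limma, adjusted p = 0.00054). ACTA2, the smooth muscle alpha actin, measured -0.54 ± 0.13 (SE) in GALNT3 KO (limma, adjusted p = 0.066) and -2.22 ± 0.13 under the GALNT3/T6 KO label (limma, adjusted p = 0.00048) and was not called in GALNT3 KO. Outside the list, the LIM proteins CSRP1 and CSRP2 had group means of -1.10 and 2.40 and -1.62 and 1.28. CAST, the inhibitor of calpain proteases, had -1.22 and 2.55, although its brighter probe had a limma mean of -0.28 in GALNT3 KO (limma, adjusted p = 0.15). Of the others, MYOF, a ferlin of membrane repair, had -0.84 and 1.67, and ANLN, the anillin of the cleavage furrow, -0.79 and 1.77.

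Cell surface and junction genes outside the strongest 25 included CD9, a tetraspanin, at -1.20 and -1.25, then 3.15 and 3.37, and CAV1, the coat protein of caveolae, at -1.28 and -1.20, then 4.27 and 4.32. AMIGO2, an adhesion protein, measured -0.90 and -1.05, then 4.20 and 4.36. All 3 rose by over 3 on the log2 scale and fell by about 1. DSC3, a desmosomal cadherin, measured -0.94 and -1.01, then 4.25 and 4.09, but was dim in KO on both GALNT3 KO arrays, with a fall of at least 1.33-fold. CXADR, a junction protein and virus receptor, measured -1.15 and -1.05, then 1.69 and 2.26, CLDN23, a claudin, -0.71 and -0.83, then 1.30 and 1.55, and PMP22, a tetraspan protein of junctions and myelin, -0.74 and -0.85, then 4.38 and 4.27. Of the fixed list of epithelial junction and polarity genes only OCLN was a member, of 26, which is 3.85%, beside 0.924% of all genes. By limma 10 of 30 were called higher and 2 lower under the GALNT3/T6 KO label, beside 14.2% and 16.8% of all genes. In GALNT3 KO 1 was called lower, beside 4.46%.

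Among receptors and their ligands, 3 of 46 listed receptor tyrosine kinase genes were members, 6.52%, beside 0.924% of all genes. PDGFRB, a receptor for platelet-derived growth factor, measured -1.83 and -0.95, then 3.41 and 4.10, with KO dim on 1 GALNT3 KO array. DDR1, a receptor that binds collagen, measured -0.90 and -1.22, then 1.49 and 1.73, and VEGFB, a ligand of the VEGF family, -0.63 and -0.86, then 0.72 and 0.96. By limma 26 of 49 genes of the list were called higher and 9 lower under the GALNT3/T6 KO label, beside 14.2% and 16.8% of all genes. In GALNT3 KO 4 were called lower and 4 higher, beside 4.46% and 2.34%. ERRFI1, an inhibitor of the EGF receptor, had means of -1.24 and 2.14, and OXTR, the oxytocin receptor, -0.81 and 4.69, with a Ctrl level that rose by 2.27. ROBO3 and RTN4RL2, receptors of neurite guidance, had -1.05 and 0.83 and -0.99 and 1.24.

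Secreted regulators were among the members with the largest rise. DKK3, a secreted protein of the Dickkopf family, measured -1.29 and -1.35, then 5.40 and 5.35, the highest of all members, although 2 of its 4 probes with Ctrl above background went another way. CYR61 (now CCN1), a matricellular protein, measured -1.32 and -1.56, then 4.11 and 4.75, and TGFB2, a ligand of the TGF-beta receptors, -1.24 and -0.72, then 2.77 and 4.20. In CYR61 only 1 of 3 probes met the rule, and its brightest probe had a limma mean of -0.47 in GALNT3 KO. TIMP2, an inhibitor of matrix metalloproteinases, measured -1.32 and -1.29, then 2.05 and 3.29, STC2, the glycoprotein hormone stanniocalcin 2, -1.59 and -1.59, then 1.62 and 2.04, and WNT5B -0.62 and -0.82, then 0.64 and 1.48. LAMA1, a laminin chain, COL16A1, a collagen, and MFAP4, a microfibril protein, had means of -1.21 and 1.11, -0.71 and 2.38 and -0.81 and 2.25. TGFB2 was the only member in the lists of TGF-beta and BMP signalling (40 genes, 2.5%) and of EMT genes (26 genes, 3.85%). DKK3 and WNT5B were the only members of 39 Wnt signalling genes, 5.13%. Over all genes the share was 0.924%.

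Intracellular kinases and signal adaptors were a varied group. MAP3K8 had means of -1.38 and 1.86, ZAK (now MAP3K20) -0.70 and 0.88, SGK3 -1.44 and 1.11, TAOK3 -0.99 and 1.11, and STK33 -1.27 and 1.14. RIPK4 was dim in KO on both GALNT3 KO arrays, so that its fall is at least 1.35-fold, and its mean on the others was 2.84. PREX1, an exchange factor for Rac, measured -3.08 and -3.61, then 0.97 and 1.71, one of the members that fell more than they rose. TRIB3, a pseudokinase of the amino acid and stress responses, measured -1.79 and -2.17, then 1.60 and 0.94. With STC2 it made up the members of the unfolded protein and amino acid response list, 2 of 33, 6.06%, beside 0.924% of all genes. CFLAR, an inhibitor of caspase 8, and BCL2L11, the BH3 protein BIM, had means of -0.76 and 1.18 and -0.76 and 0.97, the latter by 1 of 5 probes.

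Transcription regulators included NR2F2, the orphan nuclear receptor COUP-TFII, at -1.65 and -0.59, then 1.997 and 3.32. Both NR2F2 probes met the rule, and its values in GALNT3 KO lay over a log2 unit apart. MITF, the factor of melanocyte fate, measured -4.30 and -2.67, then 0.66 and 1.05 by 1 of 4 probes, with a deep fall and a small rise. BCL6, a repressor, had means of -1.27 and 1.51, KLF2 -1.13 and 2.04, CEBPD -1.03 and 1.12, ARID5B -0.75 and 3.93, E2F8 -1.01 and 1.99, NFYB -0.81 and 1.64 and the acetyltransferase KAT2B -0.73 and 1.56. NR2F2 was the only member among 26 retinoid and steroid receptor genes, 3.85%, and ZNF702P the only one of 476 ZNF genes, 0.21%. Over all genes the share was 0.924%.

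Metabolic members were spread over several routes. MVK, mevalonate kinase of sterol synthesis, measured -0.70 and -0.998, then 0.98 and 0.80. Of 34 cholesterol and fatty acid synthesis genes 2 were members, 5.88%, beside 0.924% of all genes. Limma called 9 lower and 1 higher in GALNT3 KO, beside 4.46% and 2.34% of all genes. Under the GALNT3/T6 KO label it called 7 higher and 16 lower, beside 14.2% and 16.8%. INSIG2, which retains the sterol sensor in the endoplasmic reticulum, measured -1.16 and -0.96, then 1.19 and 0.74. INSIG2 and ANKRD37 (-0.97 and -0.93, then 1.29 and 0.92) were the members of 24 hypoxia response genes, 8.33%, beside 0.924% of all genes. PAPSS2, which makes the sulfate donor of the cell, measured -1.63 and -1.36, then 3.81 and 5.27, IDH1, a cytosolic isocitrate dehydrogenase, -0.63 and -0.76, then 0.80 and 1.43, and BCAT1, a branched-chain aminotransferase, -0.68 and -0.90, then 1.65 and 1.06. The glutathione transferases GSTM1 and GSTM3 had means of -0.71 and 2.10 and -1.16 and 2.18. They were 2 of 34 antioxidant genes, 5.88%, beside 0.924% of all genes.

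Some carriers and channels were members. Of 357 solute carriers with Ctrl above background 5 were members, 1.40%, beside 0.924% of all genes. Besides SLC16A3 and SLC39A8 they were SLC44A3 (-0.94 and -0.71, then 1.86 and 1.95, a fall of at least 1.35-fold), SLC4A4, a bicarbonate carrier (-1.56 and -0.94, then 0.79 and 0.83), and SLC16A12 (-0.70 and -0.73, then 0.83 and 0.77). In SLC4A4 and SLC16A12 the brighter probe of the gene was not called by limma in either group. AQP11, an aquaporin, measured -0.87 and -0.92, then 4.79 and 4.60, with Ctrl higher by 2.02 on the second pair of arrays. ITPR3, a calcium release channel, and ATP2B4, a calcium pump, had means of -1.54 and 1.56 and -0.82 and 0.84.

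Further members are given by their group means. PLAUR, the urokinase receptor, had -1.47 and 1.48, PROCR, the receptor of protein C, -1.23 and 1.32, PTPRK, a receptor phosphatase, -0.81 and 1.89, and LRIG3 -1.99 and 1.03. Of the scaffolds, DST, dystonin, had -1.18 and 1.24, SYNE1, a nesprin of the nuclear envelope, a fall of at least 1.2-fold and a mean of 2.09, and RAI14 -0.68 and 1.29. NEDD4L, a ubiquitin ligase, had -0.98 and 1.90, ZC3H12A, an RNase that degrades cytokine mRNA, -0.70 and 1.53, BACE2, an aspartic protease, -1.23 and 1.25, and EDIL3, a matrix protein that binds integrins, -0.85 and 3.45. DDAH1, which degrades methylarginine, had -1.16 and 0.91, AASS, of lysine breakdown, -0.99 and 1.05, and ASRGL1, an asparaginase, -1.03 and 2.26. All these values lie inside the ranges given above, as do those of the members not named, some of which have only a probe or transcript name.

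A small number of members act in cell division. CEP55, of the midbody, had means of -1.12 and 1.96, HMMR, a spindle protein, -1.05 and 0.76, SKA1 and DSN1, of the kinetochore, -1.12 and 0.66 and -0.73 and 1.73, and CEP250, a centrosome linker, -0.89 and 1.68. HMMR was the only member of 34 listed mitosis genes, 2.94%, beside 0.924% of all genes. Of the 34, 12 were called lower and none higher in GALNT3 KO, beside 4.46% and 2.34% of all genes. Under the GALNT3/T6 KO label 4 were called higher and 6 lower, beside 14.2% and 16.8%. POLD3, a subunit of DNA polymerase delta, and POT1, which caps telomeres, had -0.90 and 1.02 and -0.75 and 0.93. The cytoskeletal TUBA4A, an alpha tubulin, measured -1.01 and -1.26, then 4.15 and 4.79, and its Ctrl level rose by 2.44.

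Among 28 imprinted genes, a set chosen after the values were seen, 4 were members, 14.3%, beside 0.924% of all genes. Besides MEST and GRB10 they were CDKN1C, an inhibitor of cyclin-dependent kinases (-1.80 and -0.98, then 2.80 and 3.63), and SGCE, a sarcoglycan (-0.87 and -0.89, then 2.33 and 2.55). PEG10, which lies beside SGCE, measured -1.75 ± 0.35 (SE) in GALNT3 KO (limma, adjusted p = 0.048) and 0.09 ± 0.35 under the GALNT3/T6 KO label (limma, adjusted p = 0.84), a fall with no call of a rise. COPG2, the neighbour of MEST, measured -0.72 ± 0.11 (SE) in GALNT3 KO (limma, adjusted p = 0.035) and -0.31 ± 0.11 under the GALNT3/T6 KO label (limma, adjusted p = 0.082). DLK1 and MEG3 were not called in either group. PHLDA2 and NDN, not called in GALNT3 KO, had limma log2 ratios of 4.40 and -3.46 under the GALNT3/T6 KO label. Of the 28, limma called 7 lower and none higher in GALNT3 KO, beside 4.46% and 2.34% of all genes. Under the GALNT3/T6 KO label it called 10 higher and 4 lower, beside 14.2% and 16.8%.

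The gene lists that held no member were mucin-type O-glycosylation, glycolysis, ERK feedback genes, p53 targets, DNA replication, antigen presentation, cytokines, autophagy, axon guidance and chromatin repressors, 10 of the 25 lists. The 15 others together held 33 of the 234 members. The lists cover a small part of the genes measured, so nothing is read from the members outside them. Over all genes 0.924% were members, so a list or family without a member need not differ from all genes. Of 30 gene families 21 held none, among them 109 cytosolic ribosomal protein genes, 53 keratins and 33 HOX genes with Ctrl above background. RAB31, TRIM7, TSPAN5, ADAM9, PDE4DIP and ARHGEF19 were the single members of their name families, and PDE4DIP carries the name of phosphodiesterases without being one.

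**Figure D5:**
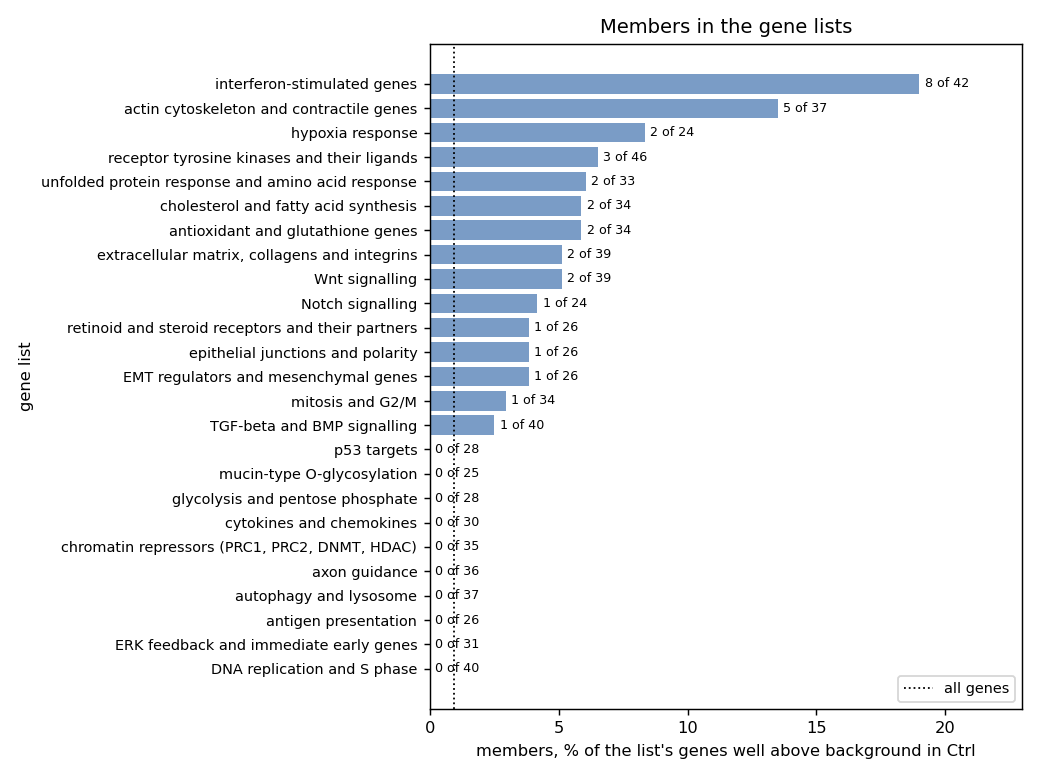
Share of members (x axis, %) among the genes of each of the 25 gene lists (y axis) with Ctrl well above background on all 4 arrays, with the count beside each bar and a dotted line at the 0.924% of all genes. Interferon-stimulated genes (8 of 42) and actin genes (5 of 37) have the longest bars, and 10 lists have none.

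Several members were neighbours. Of the 234 members 74 lay within 1 Mb of another member by their probes (hg19), 31.6%, compared with 19.3% of 24408 other genes with a position that lay within 1 Mb of a member. The metallothionein place on chromosome 16 held 5 members of 12 genes with Ctrl above background. On chromosome 1, within 35860 bases, all 4 such names were members: SLC44A3, CNN3 (probe at 95363260 to 95363319, minus strand), the divergent transcript LOC729970 (now CNN3-DT; -1.41 and -0.93, then 0.74 and 1.35, dim in KO on both GALNT3 KO arrays, so that the fall is at least 1.27-fold) and the unnamed THC2556204 (-1.10 and -1.16, then 1.09 and 0.68). The last overlaps the CNN3 place on the other strand, and its Ctrl level fell by 1.16, the only member with Ctrl at least 1.5-fold lower on the second pair of arrays.

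A second place on chromosome 1, over 835183 bases, held GPSM2, SORT1, GSTM1 and GSTM3 among 25 genes. SORT1, the sorting receptor sortilin, measured -1.49 and -1.56, then 1.91 and 2.18, and GPSM2, which orients the spindle, -1.31 and -1.39, then 0.62 and 0.91. Chromosome 10 held MYOF, CEP55 and PLCE1 over 1021472 bases among 7 genes. PLCE1, a phospholipase C, measured -1.12 and -0.68, then 1.82 and 3.11. Closer pairs were LYPD6 and LYPD6B on chromosome 2 (a fall of at least 1.35-fold and a mean of 2.73 for LYPD6, dim in KO, and -0.70 and 2.82 for LYPD6B), ZDHHC13 and E2F8 on chromosome 11 (-1.34 and 1.26, and -1.01 and 1.99) and ATP1B1 and NME7 on chromosome 1 (-1.68 and 2.68, and -0.76 and 1.200), which were picked after their values were seen. By chromosome the share of members ran from 0 of 617 genes on chromosome 22 and 1 of 794 on chromosome 14 (0.126%) to 8 of 380 on chromosome 18 (2.11%).

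Some members are named after pseudogenes whose parent gene is a member too. Besides the HSPB1 copy these were a CNN3 copy (-0.82 and -0.83, then 1.48 and 1.46), a GLRX copy (-1.02 and -0.68, then 0.66 and 0.78), a CLIC4 copy (-0.65 and -0.62, then 2.25 and 2.27) and CXADRP2 (-1.21 and -1.38, then 2.57 and 2.63), beside GLRX, a glutaredoxin (-1.36 and -0.90, then 0.80 and 1.16), and CLIC4, a chloride channel protein (-1.21 and -1.48, then 2.25 and 2.45). IFITM4P, beside IFITM2, measured -0.95 and -0.60, then 0.68 and 1.21. Parent and copy share sequence, and which of them a probe read cannot be told apart. Of the 234 names 206 are current RefSeq symbols, 14 could be updated by accession or former name, and 14 matched none.

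The promoters of the members resembled those of all genes in most of the letters counted. For 167 members with 302 promoters the median GC content was 65.2%, compared with 63.3% over 13872 genes, and the median number of CpG in 300 bases was 22.5 against 22. Motifs were searched on both strands. The AP-1 site TGANTCA was in 7.62% of member promoters and 5.73% of all, the TEAD site GGAATG in 16.2% and 12.0%, the STAT site TTCNNNGAA in 7.62% and 6.60%, and the TATA box TATAAA in 8.28% of each. The ETS site CCGGAAGT was in 0.993% of member promoters, 3 of 302, and 5.83% of all. The CRE TGACGTCA was in 1.66% and 2.39%, the NRF1 letters GCGCATGC in 2.98% and 3.99%, the E-box CACGTG in 7.95% and 8.55%, CCAAT in 31.8% and 34.7%, and the GC box GGGCGG in 61.9% and 59.4%. Promoters of the same gene can overlap, and no match says only that these letters are not in the window.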

How the data were processed

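RNA of 4 KO clones was measured on 4 two-colour Agilent arrays of 1 slide, with Cy3 for Ctrl and Cy5 for KO per the labels, while the methods of the study also mention a reverse colour label. The deposited scanner files hold intensity per spot, which the authors extracted with Agilent Feature Extraction (version 8.5.1.1 per the labels), flags for spots above background, and a log10 ratio of processed signals. The deposited value table holds the same log10 ratio, rounded. The direction and scale follow from the scanner files. Probe positions are on hg19 and promoters on GRCh38.p14 from RefSeq.

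Ratios for the choice of members used mean minus median background signal, floored at 1, log2, spots averaged per probe, minus the array median. For tests, deposited intensity was corrected with normexp (offset 50) and loess in limma 3.58.1 (R 4.3.3), with the brightest probe per gene and log2 ratios fitted over all 4 arrays. Adjusted p-values are Benjamini-Hochberg over all 27181 genes. They rest on 1 moderated spread per gene that both groups share, drawn from the 2 clones of each group. The SE of a gene is therefore the same in both groups and is not the own spread of either. The number of arrays limits the precision. Levels per channel used Aquantile. The fit was tested on simulated data. Figures and counts used Python 3.11.15.

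The members and gene lists were chosen with earlier results of these data known. Genes named are the 25 highest by the smaller of the 2 absolute group means, then members of the lists, families and places, and others chosen after their values were seen. The deviations of replicate 1 from its group mean had an r of -0.239 between the groups over 27143 genes. This 1 value cannot tell whether the replicate numbers pair the arrays, and the main fit used no block. Some members are not reported here.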

Additional observations from a re-analysis of the deposited data

Results flagged for a closer look

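All 234 members lay below Ctrl on both GALNT3 KO arrays and above Ctrl on both arrays labelled GALNT3/T6 KO. The rule chose them for this, and the difference between the 2 groups was not tested.

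The same opposite sides on all 4 arrays were seen in INSIG1, PSMB9 and FAM20C, just short of the rule, and in some metallothionein genes further from it. These were picked from genes described above. Other genes that are not members, such as AXL and CEBPB, had these sides too, and their share over all genes was not counted. Each group was tested against Ctrl, and the difference between the groups was not tested. INSIG1, which holds the sterol sensor in the endoplasmic reticulum, had a mean centred log2 ratio of 1.63 on the arrays labelled GALNT3/T6 KO. PSMB9, a subunit of the immunoproteasome, had 2.65, and FAM20C, a kinase of secreted proteins, 1.54. In the limma fit MT1E had a log2 ratio of 3.52, MT1M of 1.49 and MT1F of 0.42 under the GALNT3/T6 KO label, with values below 0 on both GALNT3 KO arrays, and none of these 3 was called lower there.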

How the results depend on the processing

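The number of members was 234 as reported and lay between 176 and 351 under other background corrections, ratios, filters and ways to join probes, while a 2-fold threshold on each array left 69. Of the 234 genes 152 remained with normexp and median centring, 165 with Agilent's log ratio, 165 with the deposited values, 171 with no background correction, 186 with normexp and loess, and 173 by the mean of all probes. With 1 array left out the number of members lay between 273 and 336. The rule then asks less, so that all 234 stay and the number cannot fall. Averaging Ctrl over the 4 arrays, the crossed pairing and the removal of probes with an outlier mark were chosen after seeing the data. Genes called by limma in both directions numbered 172, lower in GALNT3 KO 1211 and higher under the GALNT3/T6 KO label 3861. Agilent's own log ratio gave 107 in both directions and 398 lower, and the deposited values also 107 and 398. With the replicate number as a block these counts were 10, 54 and 3776, and with the crossed pairing 204, 1562 and 3966. The paper names no test for its arrays, and its t-tests are described for other assays. A t-test of the 2 loess ratios of a group against 0 has 1 degree of freedom. With an unadjusted p of at most 0.05 and 1.5-fold it gave 36 in both directions, 596 lower and 1451 higher. After Benjamini-Hochberg it gave 0, 0 and 0. With 1 array left out, when the lone array of its group is assumed to vary like the other group, the counts ran from 0 to 277, from 0 to 1803 and from 3259 to 4256, with 0 lower without either GALNT3 KO array. The causes were not tested. Of 1022 means of 73 named members under the alternatives 689 moved by less than 1 SD and 333 by more, and none of the 1022 changed sign. The 1022 include means with 1 of the 2 arrays of a group left out. With 2 arrays such a mean always moves by less than 1 SD, and by the rule it keeps its sign, so nothing is read from these. With 2 arrays a group, no dye swap and Ctrl only in the other channel, dim probes set the limit of the falls.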
